A study of Danio rerio with 13 samples.

Results

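The experiment described here is the knockdown of Gemin2 in whole zebrafish (Danio rerio) embryos, measured on 7 two-colour microarrays out of the 13 in the series. The arrays were taken by their sample titles, Gemin2 MO replicates 1 to 7. Each held Cy5-labelled cDNA of embryos that had received, at the 1 to 2 cell stage, a Gemin2 morpholino (MO, an antisense oligonucleotide that blocks translation or splicing of its target transcript) and raised to 48 hours after fertilisation. The other channel of every array held Cy3-labelled cDNA of control MO embryos of the same stage, a pool of 6 independent batches, so that 1 control RNA served all 7 arrays. The remaining 6 arrays of the series held SMN MO embryos against the same pool and are not described here. The labels call the 7 arrays biological replicates, but name no clutch for any of them, and p-values here describe only how far these RNA samples spread. Whole embryos were used, and a lower ratio cannot tell fewer cells of a type from less RNA per cell.

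Gemin2 is a subunit of the SMN complex, which loads the ring of Sm proteins onto small nuclear RNAs in the cytoplasm and so makes the small nuclear ribonucleoproteins (snRNPs) of the spliceosome. Within that complex Gemin2 is the subunit that binds the Sm proteins before the RNA arrives. Its partner SMN is the protein lost in spinal muscular atrophy, a disease of motor neurons, and zebrafish knockdowns have been used to follow motor axons and muscle when snRNP assembly is reduced.

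The values are the authors' log ratios, taken as log2 from their range. A positive value likely means more transcript in the Gemin2 MO embryos; the basis is the dye named for each channel and the order in which the design names them. "Higher" and "lower" below are meant in that direction. Of 23232 rows on the array, 19310 had values on all 7 arrays and were used, and 3922 did not. A gene symbol was annotated to 10493 of the measured rows, covering 8500 genes. Because every array shares 1 control pool, the mean ratio of each row was tested against 0 (limma, two-sided, Benjamini-Hochberg adjustment over 19310 rows, threshold 0.05); the control's own spread is not in this test, and any dye bias is. A log ratio holds no level of expression, so the labelled tissue could not be checked by its markers.

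The symbols are used only as the annotation of a row, because rows of one gene did not move together. For 1219 genes with 2 rows of different values, the mean ratios of both rows had the same sign in 589 (48.3%). That is about as often as rows unrelated to each other would share a sign. Both rows passed the test for 13 of these genes, with both higher for 2, both lower for 4 and one of each for 7. The collagen gene col9a2 had a row at 1.00 ± 0.31 (SD, n = 7) and another at -1.27 ± 0.75, above 0 and below 0 on all 7 arrays. Likewise the elongation factor gene eef2b had a row at 1.03 and another at -1.07, both called. Identical profiles, 44 over 375 rows, were looked at as well. In all 16 profiles whose rows all had a symbol, the symbol was the same, and profiles with unannotated rows were not compared. Rows of identical values may not be separate measurements, so a shared symbol does not check the annotation. A symbol below therefore names a row, and whether that row measured the transcript of that gene was not established. Whether values and annotated rows were paired correctly could not be checked here. The gene lists below group rows by these symbols and carry the same limit. Other rows of a named gene are given for some genes only, and they can differ from the row named.

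The 7 arrays were taken in 3 sets fixed before the fit: replicates 1 to 3, replicates 4 to 6, and replicate 7. The labels do not name these sets, and no test was made between them. Similarity of the profiles may have entered the choice, so higher correlations within a set are no separate support for it. Pearson's r across the 19310 rows was 0.761 to 0.806 among replicates 1 to 3 and 0.655 to 0.739 among replicates 4 to 6. Between those sets it was 0.361 to 0.623, and between replicate 7 and the others it was 0.138 to 0.388. The range with replicate 7 overlapped that between the larger sets. These are descriptions: rows are not independent and all arrays share the control pool. The shape of the distributions differed as well. On replicates 1, 2 and 3 more rows lay below -1 than above 1, with 16.7%, 20.8% and 15.3% below against 8.41%, 12.3% and 6.77% above. On replicates 4 and 5 the shares were close, at 19.2% and 12.6% below and 18.4% and 13% above. Replicate 6 had 17.3% below and 14.0% above. Replicate 7 had the narrowest spread, with an SD over rows of 0.840 where the other arrays had 0.925 to 1.33, and a lowest value of -3.71 where theirs lay between -5.33 and -7.54. The sources used here do not say what the sets stand for, and the cause of these differences was not tested.

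**Figure D1:**
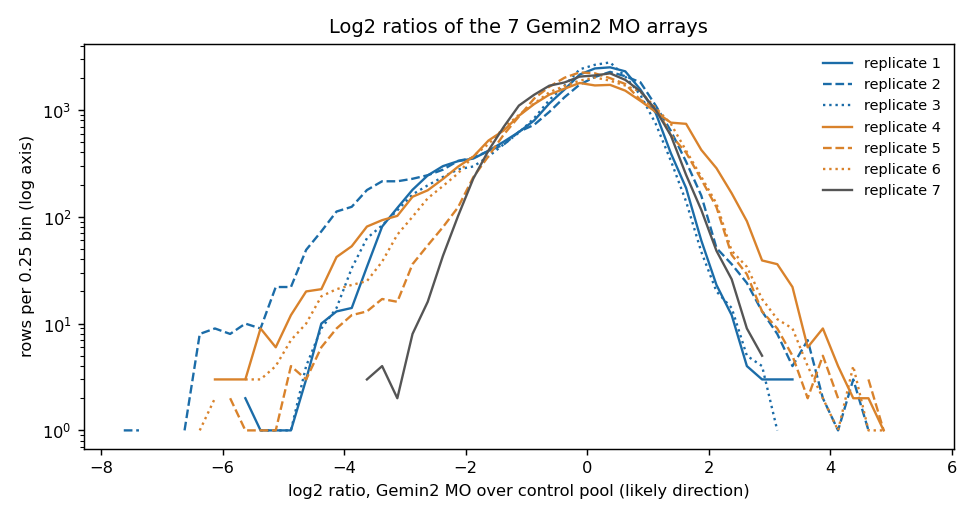
Number of rows per 0.25-wide bin of log2 ratio (log axis) for each Gemin2 MO array, replicates 1 to 3 in blue, 4 to 6 in orange and 7 in grey. Replicates 1 to 3 have the longer tail below 0, and replicate 7 ends at -3.71 while the other arrays reach -5.33 or lower.

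The test against 0 took the 3 sets as a random block, with an estimated correlation of 0.434 within a set. The same correlation served every row, so a row's own spread between sets was not estimated. Rows whose sets lie further apart than it implies, such as that of foxc1a below, may have p-values that are too small. It called 2057 rows (10.7%), of which 724 (3.75%) were higher and 1333 (6.9%) lower in Gemin2 MO embryos, and 5692 rows had an unadjusted p under 0.05. The lower calls were the larger ones. The median mean ratio was -1.88 for rows called lower and 1.21 for rows called higher. A mean beyond -2 was found for 565 rows called lower, and a mean beyond 2 for 24 rows called higher. The median of rows called lower differed between the sets, at -2.52 over replicates 1 to 3, -1.65 over replicates 4 to 6 and -0.96 on replicate 7. Rows called higher had medians of 1.03, 1.51 and 0.93 in the same sets. Of the calls, 715 of 724 higher and 1213 of 1333 lower rows had 1 sign on all 7 arrays, where 4861 (25.2%) of all rows did. The calls rest on the same 7 values, so this difference follows largely from the selection.

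How the sets were treated decided how many rows were called. Taking the 7 arrays as independent, limma called 6818 rows (35.3%), 3312 higher and 3506 lower, and these included all 2057. Without replicate 7 and with the block kept, 4544 rows (23.5%) were called, 1898 higher and 2646 lower, among them 2050 of the 2057. Replicates 1 to 3 alone gave 6115 calls (31.7%) and replicates 4 to 6 alone 6542 (33.9%). The calls of replicates 1 to 3 were 2376 higher and 3739 lower, and those of replicates 4 to 6 were 3214 higher and 3328 lower; that difference in balance was not tested. Leaving out 1 other array mattered too: 705 rows were called without replicate 6, 1257 without replicate 3 and 1297 without replicate 2.

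**Figure D2:**
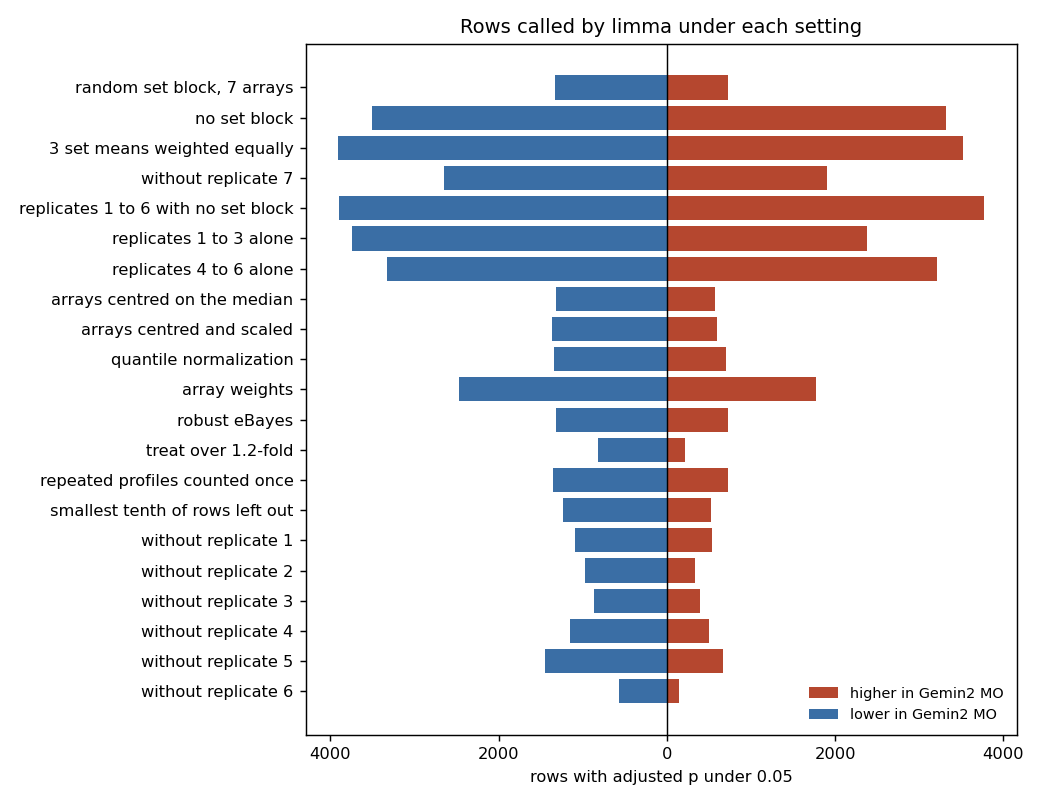
Number of rows with an adjusted p under 0.05 in limma, higher in Gemin2 MO to the right and lower to the left, for each way of fitting the 7 arrays. The random set block over 7 arrays calls 724 higher and 1333 lower rows; the 5 fits with no set block call 3328 to 3903 lower rows, and the fit without replicate 6 calls 142 higher and 563 lower rows.

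The rows described first are the annotated ones with the 12 highest and 12 lowest means among calls that had 1 sign on all 7 arrays. The highest row was annotated to scn5lab, a sodium channel gene of the zebrafish heart. Its log2 ratios were 2.25, 3.71 and 2.32 on replicates 1 to 3, 3.99, 4.87 and 4.37 on replicates 4 to 6, and 0.94 on replicate 7, with a fitted value of 2.96 (SE 0.50, adjusted p = 0.00785). The row of gata3, a zinc finger transcription factor gene, followed with 2.1, 3.22 and 2.55, then 3.88, 4.66 and 3.33, then 0.46 on replicate 7. Both rows were highest on replicates 4 to 6 and lowest on replicate 7. The row of csrp1a, a LIM domain protein gene, was between 2.97 and 4.01 on replicates 1 to 6 and at 0.04 on replicate 7. In the forkhead gene foxc1a the sets were apart: replicates 1 to 3 lay between 1.52 and 1.74, replicates 4 to 6 between 3.21 and 3.96, and replicate 7 at 0.20. The rows of gpx1a, a glutathione peroxidase gene (2.48 ± 1.16), ints13, an Integrator subunit gene (2.28 ± 1.05), myl13, a myosin light chain gene (2.19 ± 0.78), and tk2, the mitochondrial thymidine kinase gene (2.13 ± 1.13), also had higher values on each of replicates 4 to 6 than on any of replicates 1 to 3 (SD, n = 7). The rows of scocb (2.58 ± 0.45), glipr1b (2.4 ± 0.25), fam221a (2.36 ± 0.83) and rundc3ab (2.11 ± 0.71) complete the 12. Further rows of tk2 (0.15), scocb (-0.14) and rundc3ab (0.35) were not called.

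The lowest row was annotated to pak5, a p21-activated kinase gene, with -4.70, -5.55 and -4.47 on replicates 1 to 3, -4.64, -4.18 and -4.09 on replicates 4 to 6 and -2.11 on replicate 7 (fitted -4.01, SE 0.42, adjusted p = 0.00413). The row of abcb8, a mitochondrial ABC transporter gene, had -4.70, -6.18 and -4.63, then -3.40, -1.70 and -2.52, then -1.51. Here replicates 1 to 3 were below all other arrays. The row of ccnd1, the cyclin D1 gene of the G1 phase, was at -4.10, -4.62 and -3.27, then -4.00, -1.99 and -2.61, then -2.29 (adjusted p = 0.00669). Another 3 rows annotated to ccnd1 were not called, at 0.60, -1.4 and -0.01. The row of atp2a2a, which encodes the SERCA2 calcium pump of heart and slow muscle, lay between -4.54 and -2.57 on replicates 1 to 6 and at -0.48 on replicate 7. The row of tnnt1, the slow skeletal troponin T gene, had -3.20, -4.31 and -3.50, then -3.35, -2.0 and -3.28, then -2.13, while another row of tnnt1 was called higher at 1.34. The others of the 12 were annotated to slc35g2a (-3.48 ± 1.26), the metallothionein gene mt2 (-3.43 ± 1.41), mboat1 (-3.31 ± 1.19), the sodium and inositol cotransporter gene slc5a11 (-3.29 ± 1.05), the ATP synthase assembly factor gene atpaf1 (-3.28 ± 0.84), mobk1b (-3.19 ± 1.2) and gpd1l (-3.15 ± 1.24). Further rows of atp2a2a (-0.18), mt2 (0.35), atpaf1 (0.27) and gpd1l (0.41 and 0.26) were not called.

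Replicate 7 was the array nearest to 0 in 10 of the 12 lowest rows and 6 of the 12 highest. In 8 of the 12 highest rows every value of replicates 4 to 6 lay above every value of replicates 1 to 3. All 12 lowest rows were called whichever single array was left out. So were the 12 highest, except that 11 were called without replicate 6. With rows of one symbol averaged, 9 of the 12 lowest and 11 of the 12 highest kept their call. Among all named called rows, more calls were lost when 1 of replicates 1 to 6 was left out. Each such fit estimates the correlation within sets anew for all rows. It was 0.520 without replicate 6 and 0.278 without replicate 7, where all 7 arrays gave 0.434. A lost call therefore need not mean that the row rested on the array left out. Of the 125 called rows named here or listed by the same rule, all 125 were still called without replicate 7. The count was 115 without replicate 5, 108 without replicate 4 and 104 without replicate 1. It was 92 without replicate 2, 90 without replicate 3 and 59 without replicate 6. With rows of one symbol averaged 91 of the 125 kept their call, and 80 did in limma's test against a 1.2-fold change.

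**Figure D3:**
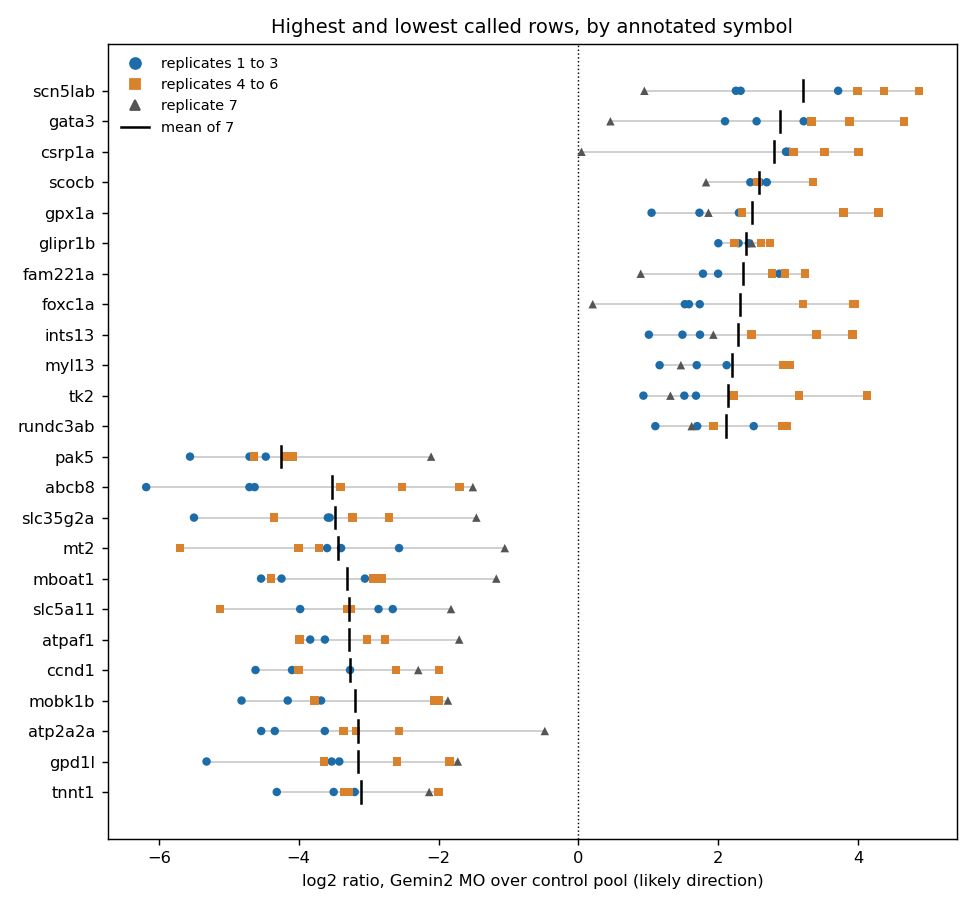
Log2 ratio on each of the 7 arrays for the 12 highest and 12 lowest called rows with 1 sign on all arrays, by annotated symbol, with the mean of 7 as a black bar. Values of replicate 7 (triangles) often lie nearest to 0, as for csrp1a at 0.04 and atp2a2a at -0.48.

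Other rows hardly varied between arrays. The 5 rows with the largest mean relative to their SD were annotated to vangl1 (0.66 ± 0.10, SD, n = 7), a planar cell polarity gene, glipr1b (2.4 ± 0.25), mical2b (1.94 ± 0.28), which encodes an actin-oxidising enzyme, pde12 (1.74 ± 0.27) and mboat7 (-1.88 ± 0.32), a lysophospholipid acyltransferase gene. The glipr1b row was at 2.44, 2.29, 2.00, 2.74, 2.61, 2.23 and 2.48 on replicates 1 to 7, so that the sets overlapped and replicate 7 lay among the rest. The vangl1 row ranged from 0.53 to 0.84 and did not pass the test (adjusted p = 0.0894); limma draws the smallest spreads towards the common one. The other 4 rows passed with adjusted p-values of 0.00413 to 0.00692.

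Of the targeted gene, 1 of 2 annotated rows was measured. The gemin2 row had 1.16, 0.93 and 0.86 on replicates 1 to 3, -0.13, 0.07 and 1.34 on replicates 4 to 6 and 1.28 on replicate 7. It was above 0 on 6 of 7 arrays, with replicates 4 and 5 near 0 and replicate 6 the highest. The fitted value of 0.84 (SE 0.33) did not pass the test (adjusted p = 0.112), and an exact sign-flip permutation test of the 7 values gave an unadjusted two-sided p = 0.0469, where the smallest possible is 0.0156. That test takes the 7 arrays as independent and ignores the sets, so its p may be too small. With independent arrays it passed (0.79, adjusted p = 0.0198). In the likely direction this row was not lower in the Gemin2 MO embryos. Whether the row measured the gemin2 transcript was not established. The sources used here do not say whether this MO blocks splicing or translation. Transcript can persist when translation alone is blocked, so the row does not check the labels. The 1 row annotated to smn1 was not among the rows with values on all 7 arrays.

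None of the 7 measured rows of the SMN complex list passed the test, where 10.7% of all rows did. The row of gemin5, the subunit that recognises snRNAs, was above 0 on all 7 arrays, from 0.11 to 1.03 (fitted 0.44, SE 0.27, adjusted p = 0.288). For gemin4 a first row had -2.08, -2.54 and -1.33 on replicates 1 to 3, -1.25, 0.15 and -0.30 on replicates 4 to 6 and 0.71 on replicate 7, and a second row was above 0 on 6 of 7 at 0.47 ± 0.46. The rows of ddx20, the helicase Gemin3, were at 0.34 ± 0.56 and 0.26 ± 0.48, and that of gemin8 was at -0.17 ± 0.44. The fitted values of these rows had adjusted p-values of 0.112 for gemin2 to 0.802 for gemin8.

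Among genes that modify, assemble or carry snRNPs, 2 of 14 rows were higher and 1 lower, 21.4% called against 10.7% of all rows. The row of prmt5, the arginine methyltransferase that prepares Sm proteins for the SMN complex, had 1.42, 1.53 and 1.58, then 0.99, 0.85 and 1.98, then 1.2, and was called higher (fitted 1.35, SE 0.29, adjusted p = 0.0152). The row of kpnb1, importin beta, which carries snRNPs into the nucleus, was called higher with values of 0.96 to 2.28. Both of these rows were above 0 on every array, with overlapping sets. A second kpnb1 row was not called, at 0.29 (adjusted p = 0.423). The row of coil, the gene of coilin, the scaffold of Cajal bodies where snRNPs mature, was called lower at -1.34 ± 0.75, with replicate 5 at -0.13. That call was lost without replicate 3 (adjusted p = 0.0581), 4 (0.0501) or 6 (0.0829).

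The list of Sm and LSm genes covers proteins of the rings and other LSm family members. Of its 17 rows 0 were higher and 3 lower, 17.6% called against 10.7% of all rows. These were annotated to lsm14b (-1.93 ± 0.88), to smx5 (-1.33 ± 0.72), for which RefSeq lists lsm2 as a synonym, and to lsm12a (-1.12 ± 0.37). LSm14 and LSm12 proteins are LSm family members outside the spliceosomal rings. The means of the 17 rows ran from -1.94 to 0.82 with a median of -0.31, where the median over all rows was 0.04. Of 27 rows of major snRNP genes, 0 were higher and 2 lower, 7.41% called, and both belong to the U4/U6.U5 tri-snRNP. The snrnp27 row had -2.92, -2.99 and -2.99, then -2.26, -0.72 and -1.22, then -0.32, and the prpf4 row lay between -2.96 and -0.70. In both, replicates 1 to 3 were below replicates 4 to 6 and replicate 7 was nearest to 0. None of 6 minor snRNP rows, for the spliceosome of U12-type introns, passed, with means of -0.84 to 0.68.

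Rows of splicing regulators were called in both directions, as all rows were, and at shares below that of all rows. Of 42 rows of SR and hnRNP genes 3 were higher, annotated to syncrip (1.77 ± 0.68), srsf10b (1.4 ± 0.66) and srsf9 (1.1 ± 0.52), and 1 lower, annotated to ptbp2a, the neuronal polypyrimidine tract binding protein gene. The ptbp2a row had -2.44, -2.98 and -2.73, then -3.73, -1.74 and -2.42, then -1.15 (adjusted p = 0.00785). Among 51 rows of other splicing factors, those of u2af2b (1.14 ± 0.65), a U2AF large subunit gene, and cwc27 (1.00 ± 0.28) were higher and that of the mRNA export gene thoc2 (-1.49 ± 0.79) lower. Of 22 rows for Integrator and cleavage factors, 2 were higher and 0 lower, ints13 and cstf1 (1.57 ± 0.59). The called shares of these 3 lists, 9.52%, 5.88% and 9.09%, compare with 10.7% of all rows.

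**Figure D4:**
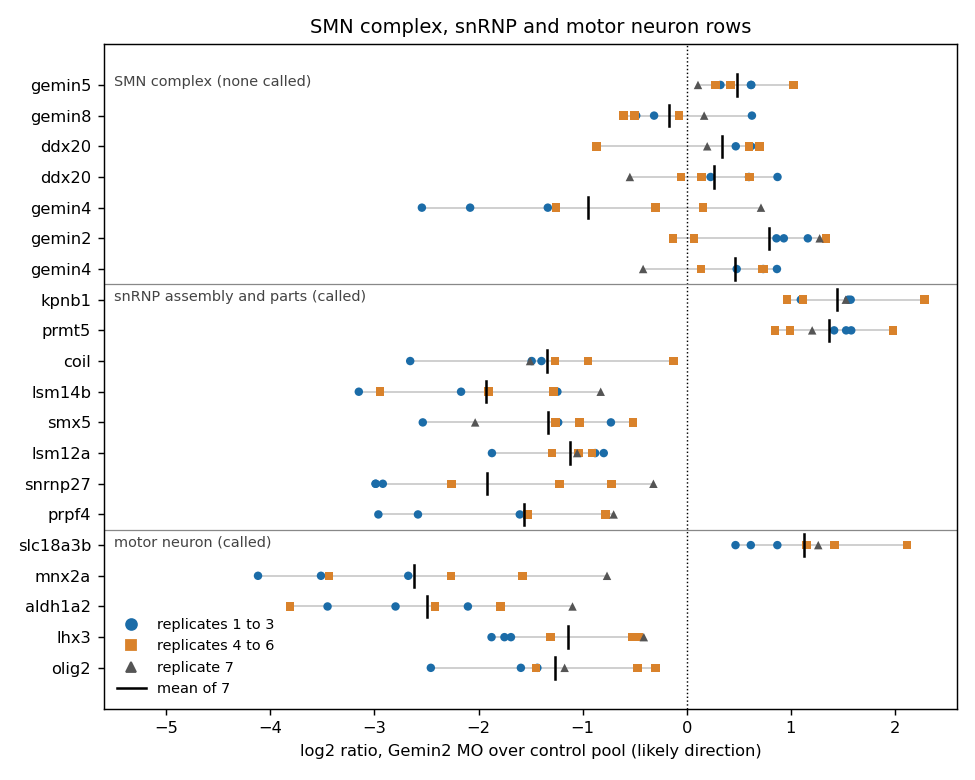
Log2 ratio on each array for the 7 rows of the SMN complex, the 8 called rows of snRNP assembly, Sm and LSm and major snRNP genes, and the 5 called rows of the motor neuron list, with the mean of 7 as a black bar. Of the SMN complex rows, gemin5 alone stays above 0, at 0.11 to 1.03; prmt5 and kpnb1 stay above 0 and mnx2a and aldh1a2 below 0 on all 7 arrays.

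In the motor neuron list 1 of 15 rows was higher and 4 were lower, 33.3% against 10.7% of all rows; the list was chosen with earlier results of these arrays known. The row of mnx2a, a homeobox gene of the Hb9 family of motor neuron factors, had -2.68, -4.12 and -3.51, then -3.44, -1.58 and -2.27, then -0.77 (fitted -2.42, SE 0.48, adjusted p = 0.0122). The row of aldh1a2, which makes retinoic acid and is also active in somites, was at -2.1, -3.45 and -2.80, then -3.81, -1.79 and -2.42, then -1.1 (adjusted p = 0.00993). Neither had an array above -0.77. The rows of olig2 (-1.27 ± 0.73), the factor of motor neuron progenitors, and lhx3 (-1.15 ± 0.66), a LIM homeobox factor, were called lower as well. The row of slc18a3b, a vesicular acetylcholine transporter gene, was called higher with 0.87, 0.61 and 0.47, then 2.12, 1.42 and 1.15, then 1.26. The other 10 rows, among them those of mnx1 (0.67), isl2a (0.68) and isl1a (-1.04), did not pass, and the median of all 15 was 0.08. The count changed with the arrays fitted: 3 rows were called without replicate 1, 2 or 3 and 2 without replicate 6, while 7 were called without replicate 7. None of 6 rows for the neuromuscular junction passed, with means of -1.4 for chrne, the epsilon subunit gene of the acetylcholine receptor, to 0.27 for agrn, the agrin gene. None of 9 rows for synaptic adhesion passed either.

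In the wider nervous system, 12.5% of synaptic vesicle rows and 15.8% of pan-neuronal rows were called, against 10.7% of all rows. Of 24 synaptic vesicle rows 2 were higher, annotated to the complexin gene cplx2 (1.33 ± 0.54) and the synaptobrevin gene vamp2 (1.1 ± 0.40), and 1 lower, annotated to nsfb (-1.38 ± 0.29), which encodes the ATPase that takes SNARE complexes apart. The nsfb row varied little, from -1.85 to -1.02. Of 38 rows in the pan-neuronal list, which also holds genes of single transmitter types, 2 were higher and 4 lower. The lowest were gad2 and gad1b, both for glutamate decarboxylases that make the transmitter GABA. The gad2 row had -2.57, -3.69 and -2.93, then -3.21, -2.35 and -3.05, then -1.65 (adjusted p = 0.00607), and the gad1b row was at -2.01 ± 1.1; a second row of each gene was not called, at -0.54 and 0.29. The 2 higher rows were those of neurod1 (1.13 ± 0.54), a neurogenic factor gene, and of the sodium pump gene atp1a3b (1.11 ± 0.48). The same neurod1 row was also counted in the pancreas and gut list.

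Shares called in the next lists were 11.8% for neural progenitors, 8.16% for axon guidance, 5% for glia, 14% for photoreceptors and 3.23% for lens, against 10.7% of all rows. Of 51 neural progenitor rows 4 were higher and 2 lower, with sox11a at 1.46 ± 0.93, zic2b at 1.26 ± 0.42 and sox21a at -2.29 ± 1.3. For sox21a, replicates 1 to 3 lay between -3.97 and -3.36 and the other arrays between -2.01 and -0.85. Of 49 axon guidance rows 2 were higher, the plexin gene plxna4 (1.12 ± 0.51) and the semaphorin gene sema3ab (1.06 ± 0.38), and 2 lower, the ephrin genes efna1a (-2.64 ± 1.73) and efnb3b (-1.37 ± 0.48). The efna1a row ran from -5.17 to -0.07, lowest on replicates 1 to 3. Of 20 glial rows 1 was lower, gja1b (-2.38 ± 1.25), the connexin 43 gene. In the eye, 2 of 43 photoreceptor rows were higher and 4 lower, among them the outer segment genes rom1b (1.29 ± 0.50) and prph2b (1.11 ± 0.40) and the green cone opsin gene opn1mw1 (-1.78 ± 0.98) and nr2e3 (-1.23 ± 0.84), a photoreceptor nuclear receptor gene. Of 31 lens rows 1 was lower, the crystallin gene crygmx (-2.33 ± 0.98).

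In muscle, 5 of 92 skeletal rows were higher and 4 lower, 9.78% called against 10.7% of all rows. Besides myl13 and tnnt1, the named ones were cavin4b (1.41 ± 0.80), a caveola gene of muscle, and acta1b, a skeletal actin gene. The acta1b row had -3.14, -4.42 and -3.24, then -1.88, -0.79 and -1.75, then -1.04, with replicates 1 to 3 below all others. Of 28 heart rows 3 were higher and 2 lower, 17.9% called. Besides scn5lab, the row of nkx2.7 (1.13 ± 0.53), a cardiac homeobox gene, was higher, and those of myh7l (-2.29 ± 1.12), a myosin heavy chain gene, and hand2 (-0.98 ± 0.59), a factor of heart and fin buds, lower. On the hand2 row replicates 1 to 4 lay between -0.69 and -0.37 and replicates 5 to 7 between -1.67 and -1.46.

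In blood and vessels, 3.23% of erythroid, 12% of endothelial and 12.1% of leukocyte rows were called, against 10.7% of all rows. In the erythroid list 0 of 31 rows were higher and 1 lower, cahz, a carbonic anhydrase gene (-2.4 ± 0.76). Of 25 endothelial rows 2 were higher, the vascular growth factor receptor gene kdr (1.29 ± 0.36) and egfl7 (1.38 ± 0.82), and 1 lower, the angiopoietin receptor gene tek (-2.26 ± 1.35). Of 33 leukocyte rows 1 was higher, cebpa (1.32 ± 0.39), and 3 lower, among them csf1ra, the receptor gene that macrophages and yellow pigment cells share, with -2.30, -3.30 and -2.62, then -4.36, -1.94 and -2.75, then -1.15. Pigment cells had the lowest list median, -0.42 over 28 rows, with 0 higher and 3 lower, a called share of 10.7% that equals that of all rows. The row of foxd3, a neural crest factor, was at -2.08 ± 0.56 and ran from -2.71 to -1.26. With medians of -0.17 over replicates 1 to 3, -0.73 over replicates 4 to 6 and -0.46 on replicate 7, the pigment list lay below the all-row medians of 0.11, 0.01 and 0.01 in each set; no test of this was made.

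In endoderm, skin and skeleton the called shares were 7.84% for liver and plasma proteins, 13.2% for pancreas and gut, 16.3% for epidermis, 12.8% for cartilage and notochord and 10.8% for hox genes, against 10.7% of all rows. Of 51 rows of liver and plasma protein genes 1 was higher, the apolipoprotein gene apobb.1 (1.87 ± 1.03), and 3 lower, with fga, a fibrinogen chain gene, at -2.0 ± 1.13 and apoea at -1.04 ± 0.44. Other rows of apobb.1 (0.63 and -1.13) and of fga (0.35 and -0.91) were not called. Of 38 pancreas and gut rows 2 were higher and 3 lower, including the elastase gene cela1.1 (1.44 ± 0.67), the pancreatic factor gene pdx1 (-2.16 ± 1.2) and the carboxypeptidase gene cpb1 (-1.63 ± 0.88). The pdx1 row was between -3.70 and -1.42 on replicates 1 to 6 and at -0.07 on replicate 7. Of 43 epidermal rows 4 were higher and 3 lower, with the envoplakin gene evpla at 1.87 ± 0.74, the keratin genes krt8 at 1.12 ± 0.36 and krt96 at -2.51 ± 1.28, and the annexin gene anxa1b at -2.64 ± 1.48. Of 39 cartilage and notochord rows 2 were higher and 3 lower. Besides the opposed col9a2 rows, shha, the Sonic hedgehog gene, was at 1.23 ± 0.51 and sox9b, a chondrocyte factor, at -1.43 ± 0.75. Of 37 hox rows 2 were higher, hoxc13b (0.90 ± 0.28) and hoxc8a (0.86 ± 0.29), and 2 lower, hoxd3a (-1.71 ± 0.74) and hoxb6b (-1.61 ± 0.77).

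Among growth and stress genes the called shares were 5.26% for the p53 response and apoptosis, 13.6% for the cell cycle, 10.4% for the ribosome and 14.3% for translation factors, against 10.7% of all rows. In the first of these, 0 of 38 rows were higher and 2 lower. The row of casp8, the caspase of death receptors, had -2.64, -3.97 and -2.43, then -2.25, -1.25 and -2.07, then -2.07 (adjusted p = 0.00692). The other was birc5b, a survivin gene, described below. Of 81 cell cycle and DNA replication rows 6 were higher and 5 lower, with pola2, a DNA polymerase alpha subunit gene, at 1.65 ± 0.35, top2a at 1.43 ± 0.73 and the checkpoint kinase gene chek1 at -1.26 ± 0.53. Of 77 rows of ribosomal protein genes 2 were higher, rpl6 (1.39 ± 0.38) and rpl36 (1.26 ± 0.66), and 6 lower, among them rps14 (-2.30 ± 0.74) and a row of rpl27a (-2.06 ± 1.1). Of 63 rows of translation factors 3 were higher and 6 lower, with the poly(A) binding protein gene pabpc4 at 1.32 ± 0.77, eef1b2 at -2.71 ± 1.73 and eif4ebp3l at -2.13 ± 1.07.

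The proteasome list held 6 higher and 5 lower of 60 rows, 18.3% against 10.7% of all rows. Genes of the core particle, psmb4 (1.36 ± 0.43) and psmb3 (1.21 ± 0.65), were among those higher. Genes of the regulatory particle were called in both directions, with psmd4b (1.99 ± 1.22) higher and psmd12 (-2.78 ± 1.49) and psmc6 (-2.18 ± 0.77) lower. Further rows of these genes did not all follow: a second psmb3 row was called higher at 0.99 and another was at 0.06, while the other psmd12 rows were at -0.35 and 0.71. The other psmd4b row was below 0 on all 7 arrays, at -0.87, and the other psmc6 row was at -1.48. Neither was called. Of 60 heat shock and chaperone rows 4 were higher and 3 lower, 11.7% called, with hsp90aa1.1 at 1.38 ± 0.74, bag2 at 1.11 ± 0.44, the mitochondrial chaperonin gene hspe1 at -2.80 ± 1.25 and hyou1, a chaperone gene of the endoplasmic reticulum, at -2.36 ± 0.79. Of 75 oxidative phosphorylation rows 4 were higher and 7 lower, 14.7% called, with the complex I genes ndufa5 (1.35 ± 0.54), ndufa1 (1.27 ± 0.77) and ndufv2 (-1.91 ± 0.71) and the cytochrome oxidase gene cox4i2 (-2.32 ± 1.25).

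**Figure D5:**
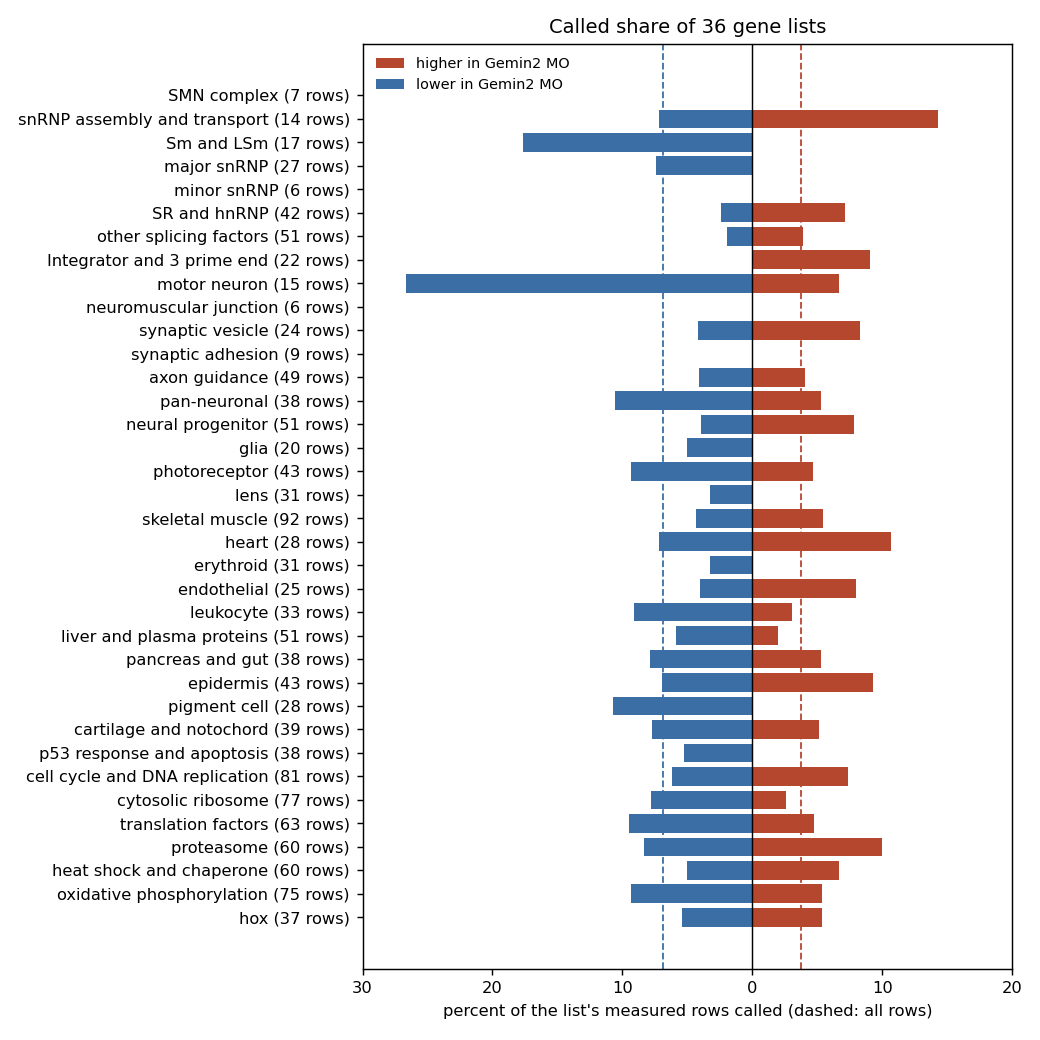
Percent of the measured rows of each of 36 gene lists called higher (right) or lower (left) in Gemin2 MO, with dashed lines at the share of all rows, 3.75% higher and 6.9% lower. The motor neuron list has 4 of 15 rows lower, and the SMN complex, minor snRNP, neuromuscular junction and synaptic adhesion lists have none called.

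Some rows were uniform on 6 arrays and opposed on replicate 7. One sign on replicates 1 to 6 was found for 7046 rows (36.5% of all rows), and 2185 of these (11.3% of all rows) had the other sign on replicate 7. Over all rows, replicate 7 shared its sign with any 1 other array in only 54.2% to 64.8%. Opposite signs on replicate 7 were therefore common and not particular to these rows. The largest with a symbol was birc5b, at -3.62, -5.11 and -4.19, then -4.41, -2.73 and -2.65, then 0.58, still called lower over the 7 arrays (adjusted p = 0.0243). A row of zgc:113208 followed, between -4.34 and -2.16 on replicates 1 to 6 and at 0.28 on replicate 7. A row of hspa4b, an Hsp110 family gene, had -0.66 or less on replicates 1 to 6 and 0.40 on replicate 7, and did not pass (adjusted p = 0.0604). In the other direction, psmd4b had 0.84 to 3.57 on replicates 1 to 6 and -0.04 on replicate 7 (adjusted p = 0.0414), bcat2 had 0.77 to 3.44 and -1.39 (adjusted p = 0.155), and eif3ea had 1.02 to 3.47 and -0.12 (adjusted p = 0.0728). Further rows of some of these genes did not follow. Another hspa4b row was called higher at 0.83, and other rows of birc5b (0.65), zgc:113208 (-0.05) and psmd4b (-0.87) were not called.

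Other rows split between the larger sets. Of 8116 rows (42.0% of all rows) with 1 sign within replicates 1 to 3 and 1 sign within replicates 4 to 6, 1070 (5.54% of all rows) had opposite signs in the sets. The row of rheb, the GTPase gene upstream of mTORC1, had -2.47, -6.14 and -0.75 on replicates 1 to 3, 2.72, 2.25 and 1.11 on replicates 4 to 6 and 1.71 on replicate 7. The row of ckma, muscle creatine kinase, was the other way round, with 1.4, 0.80 and 2.80, then -4.05, -0.63 and -0.25, then 2.53. A row of rpl27a was at 1.01, 1.09 and 1.02, then -0.70, -2.61 and -2.87, then 0.19. The rows of gpd1c (set means 0.97 over replicates 1 to 3 and -2.52 over replicates 4 to 6), bnip2 (-2.28 and 1.32) and gorasp2 (-0.60 and 2.85) also split. None of these 6 rows passed over the 7 arrays, with adjusted p-values of 0.376 to 0.997.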

How the data were processed

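Per the labels, RNA of Gemin2 MO embryos (Cy5) and of the pooled control MO embryos (Cy3) was reverse transcribed and hybridised together, with no dye swap. The deposited value table holds the authors' log2 ratios, 1 per row and array; the sources used here state no base, background correction, normalization or centring and give no intensities, so the number of arrays limits the precision. Array medians ran from 0.00384 to 0.122. All 13 columns were mapped by sample accession and 0 were left unmapped.

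Values were used as deposited. limma 3.58.1 (R 4.3.3) fitted an intercept to the 7 arrays with the sets (replicates 1 to 3, 4 to 6, and 7) as a random block by duplicateCorrelation, then eBayes. Fitted values weight the sets and differ from plain means. The fit was also run on simulated data in which every row had the same correlation within sets. That run could not test rows whose sets lie further apart. Symbols came from the platform annotation: 11724 rows had 1 symbol, 0 several and 11508 none; 8022 were updated through RefSeq (GRCz12tu) synonyms, 3568 were current and 134 kept. Identical profiles were counted once in lists. pandas 2.3.3 and matplotlib 3.10.9 made tables and plots.

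Named rows were those of gemin2 and smn1; the 12 highest and 12 lowest called with 1 sign; up to 2 each way per list; 3 each way opposed on replicate 7 or between sets; and the 5 largest means over SD. All SMN complex rows, and the called rows of lsm12a, srsf9, olig2 and lhx3, were added after values were seen, as were other rows of a named gene and unpassed list members given for their values. Members and the 36 lists were chosen with earlier results of these data known. Alternatives covered the block, replicate 7, each array left out, centring, scaling, quantile normalization, array weights, robust eBayes, limma's treat (1.2-fold), repeated rows, rows averaged by symbol and a filter on small ratios.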

Additional observations from a re-analysis of the deposited data

Results flagged for a closer look

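In 6 of the named rows 1 array lay far from the other 6, by Dixon's test with a critical value of 0.568 for 7 arrays. For unselected rows and independent arrays chance flags about 1 in 20 groups, and 142 named rows were looked at. These rows were selected by their values and the arrays correlate within sets, so that rate may not hold here. No conclusion is drawn from the flags. The csrp1a row was at 0.0437 on replicate 7, with the others between 2.97 and 4.01. The pak5 row was at -2.11 on replicate 7, with the others between -5.55 and -4.09. The birc5b row, chosen because replicate 7 opposed the others, was at 0.58 there, with the others between -5.11 and -2.65. Replicate 4 stood apart in the egfl7 row, at 3.16 with the others between 0.73 and 1.41, and in a ddx20 row, at -0.87 with the others between 0.20 and 0.70. The kdr row was at 2.07 on replicate 6, with the others between 0.93 and 1.35.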

How the results depend on the processing

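The number of called rows followed the treatment of the array sets, and the cause was not tested. With the set block over 7 arrays limma called 2057 rows (724 higher, 1333 lower). Counts were 6818 with no set block (3312, 3506), 7422 with 3 set means weighted equally (3519, 3903), 7668 for replicates 1 to 6 with no set block (3772, 3896), 4544 without replicate 7 (1898, 2646), 6115 for replicates 1 to 3 alone (2376, 3739), 6542 for replicates 4 to 6 alone (3214, 3328) and 4244 with array weights (1777, 2467). They were 1032 with treat (215, 817), which tests against a 1.2-fold change, and 794 with rows of one symbol averaged (284, 510), where 8500 symbols were tested. Leaving out 1 of replicates 1 to 6 gave 705 (replicate 6) to 2111 calls (replicate 5), with 142 to 662 higher and 563 to 1449 lower. Centring, scaling, quantile normalization, robust eBayes, repeated profiles counted once and the filter on small ratios kept the 3 counts within 1.5 times. The fit with 3 set means takes its error from within replicates 1 to 3 and 4 to 6 only. Its p-values leave out the spread between sets. The gemin2 row passed with no set block (0.79), with 3 set means (0.90), for replicates 1 to 6 with no set block (0.71) and for replicates 1 to 3 alone (0.99), and under no other alternative. Signs turned, with the row called in the alternative, for gpd1c (0.97) and rpl27a (1.04) on replicates 1 to 3 alone, for rheb (2.03) and bnip2 (1.32) on replicates 4 to 6 alone, and, not called, for ckma on replicates 4 to 6 alone (-1.64), for gorasp2 on replicates 1 to 3 alone (-0.60) and for the higher col9a2 row when its opposed rows were averaged (-0.10). Except for col9a2, these rows were chosen for opposite signs in replicates 1 to 3 and 4 to 6. A turn in a single set was therefore fixed by the choice. The gpd1c, rheb, ckma and second gemin4 rows also changed sign, never called, under further alternatives. Of 36 list counts, all 36 moved by over 1.5 times with no set block, 30 without replicate 7, 27 without replicate 6, 22 without replicate 3, 18 without replicate 2, 12 without replicate 1, 6 without replicate 5 and 5 without replicate 4. No paired analysis was possible because only the Gemin2 MO arrays entered the fit and all share 1 control pool. Intensities were not used here, so signal over background is unknown.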
